A study of Mus musculus with 9 samples.

Results

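The genes described here encode 38 proteins that bind precursor mRNA and steer the choice of splice sites, out of 57010 gene identifiers in each of the authors' deposited tables. They were chosen by name: a gene was a member when its symbol stood in both tables and matched a fixed list. The list holds 13 serine/arginine-rich proteins with the related Tra2a and Tra2b, called SR proteins below, and 25 heterogeneous nuclear ribonucleoproteins with the polypyrimidine tract binding proteins (PTB) and the poly(C) binding proteins (PCBP), called hnRNP proteins below. All 38 were found in both tables and all had an adjusted p in both.

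Bulk RNA of 9 mouse libraries was sequenced as paired 150 bp reads. Normal denotes the 3 libraries of normal lung organoids, SCLC the 3 of organoids of small cell lung cancer, and GSK the 3 that the study describes as SCLC organoids given an agent called GSK. Organoids are cultures that mimic a tissue, and SCLC is a neuroendocrine lung tumour. Not given in the sources used here are the identity, dose and time of GSK, the genotype of the tumours, and the strain and age of the mice. The labels do not say whether the 3 libraries of a group came from separate animals or cultures, so p-values measure the spread between these libraries, which may be technical.

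SR proteins carry RNA recognition motifs and a tail of arginine and serine repeats that is phosphorylated by kinases of the SRPK and CLK families. They bind exonic enhancers and recruit the U1 and U2 particles, and many also escort mRNA out of the nucleus. The hnRNP proteins coat nascent transcripts through RNA recognition motifs or KH domains, and many of them silence exons that SR proteins promote, so the balance of both classes helps to set which exons are kept. Several members of both classes limit their own mRNA through a poison exon that sends the transcript to nonsense-mediated decay. PTB proteins have a known role in nerve-like cells, where Ptbp1 represses neuronal exons and its paralog Ptbp2 replaces it.

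Most hnRNP genes were higher in SCLC and 8 of them lower in GSK. Promoters are shown first, in RefSeq sequence on build GRCm38.p6, and whether their motifs relate to these changes was not tested. RefSeq windows of 300 bases, from 250 before to 50 after a transcript start, were found for 35 of the 38 members, 48 windows in all. The 250 bases before the start are printed for 5 of these 8 hnRNP genes, Hnrnpl, Hnrnpul1, Ptbp1, Pcbp1 and Pcbp2, and for Srsf7 and Srsf3, which had the largest rises in SCLC among the 12 SR genes whose mean was 1000 or more. The genes were picked after their values and motifs were seen, so that each class shows stretches with and without a motif. Capitals mark CCAAT or its reverse complement ATTGG, the box bound by factor NF-Y, and CACGTG, the E-box that MYC with MAX can bind. Hnrnpl lies at chr7:28810640-28810889 on the plus strand, Hnrnpul1 at chr7:25754760-25755009 on the minus strand, Ptbp1 at chr10:79854182-79854431 on the plus strand, Pcbp1 at chr6:86526190-86526439 on the minus strand, Pcbp2 at chr15:102470289-102470538 on the plus strand, Srsf7 at chr17:80207306-80207555 on the minus strand and Srsf3 at chr17:29032410-29032659 on the plus strand.
Hnrnpl: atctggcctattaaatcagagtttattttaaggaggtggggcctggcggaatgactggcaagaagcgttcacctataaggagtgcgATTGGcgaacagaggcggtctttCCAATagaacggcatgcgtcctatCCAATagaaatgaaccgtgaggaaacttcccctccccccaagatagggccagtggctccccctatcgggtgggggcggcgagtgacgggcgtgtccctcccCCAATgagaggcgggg
Hnrnpul1: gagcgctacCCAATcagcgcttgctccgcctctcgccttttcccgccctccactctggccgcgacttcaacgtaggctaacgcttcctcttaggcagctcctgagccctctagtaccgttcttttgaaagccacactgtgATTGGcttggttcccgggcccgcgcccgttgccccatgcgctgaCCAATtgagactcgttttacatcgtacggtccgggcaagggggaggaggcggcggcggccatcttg
Ptbp1: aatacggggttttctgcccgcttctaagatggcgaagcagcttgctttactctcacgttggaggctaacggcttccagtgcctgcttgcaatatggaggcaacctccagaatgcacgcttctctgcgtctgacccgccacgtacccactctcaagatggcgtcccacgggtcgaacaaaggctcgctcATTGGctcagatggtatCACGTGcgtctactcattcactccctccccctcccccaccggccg
Pcbp1: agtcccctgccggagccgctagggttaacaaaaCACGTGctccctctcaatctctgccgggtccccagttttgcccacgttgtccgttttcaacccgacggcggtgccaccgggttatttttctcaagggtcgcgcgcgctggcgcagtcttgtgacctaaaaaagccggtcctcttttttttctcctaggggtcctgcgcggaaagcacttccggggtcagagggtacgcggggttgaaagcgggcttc
Pcbp2: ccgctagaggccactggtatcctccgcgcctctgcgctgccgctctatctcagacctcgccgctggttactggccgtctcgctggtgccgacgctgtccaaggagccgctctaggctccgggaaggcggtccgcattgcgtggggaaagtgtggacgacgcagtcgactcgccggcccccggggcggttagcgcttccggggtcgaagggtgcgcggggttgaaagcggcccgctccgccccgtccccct
Srsf7: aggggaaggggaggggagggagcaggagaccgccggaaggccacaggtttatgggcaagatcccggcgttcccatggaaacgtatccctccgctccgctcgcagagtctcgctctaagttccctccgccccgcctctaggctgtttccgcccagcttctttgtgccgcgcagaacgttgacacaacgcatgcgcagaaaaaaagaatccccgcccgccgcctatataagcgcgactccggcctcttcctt
Srsf3: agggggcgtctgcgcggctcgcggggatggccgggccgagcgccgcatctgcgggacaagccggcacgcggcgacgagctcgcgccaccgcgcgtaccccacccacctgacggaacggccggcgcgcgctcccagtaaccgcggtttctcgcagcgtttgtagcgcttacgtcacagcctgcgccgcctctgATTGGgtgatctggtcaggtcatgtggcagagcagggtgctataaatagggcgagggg

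The printed Hnrnpl stretch holds 4 CCAAT boxes, that of Hnrnpul1 holds 3, that of Ptbp1 holds 1 CCAAT box and 1 E-box, that of Pcbp1 holds 1 E-box, that of Srsf3 holds 1 CCAAT box, and those of Pcbp2 and Srsf7 hold neither. Hnrnpc, Hnrnpa1 and Hnrnpr also have 4 CCAAT boxes in such a stretch, and of these 3 only Hnrnpc was called lower in GSK. Over both strands of the whole 300-base windows, CCAAT stood in 18 of 32 hnRNP windows (56.3%) and in 5 of 16 SR windows (31.3%), against 37.4% of the 32851 windows of all genes. CACGTG stood in 7 of 32 hnRNP windows (21.9%), those of Hnrnpa3, Hnrnpd, Hnrnpf, Hnrnph2, Hnrnpm, Ptbp1 and Pcbp1, and in 0 of 16 SR windows, against 7.15% of all windows. GGGCGG, the GC box, stood in 15 of 16 SR and 26 of 32 hnRNP windows, against 35.7% of all, and TATAAA in 2 of 16 and 2 of 32, against 13.6%. The median GC content was 68.7% in SR windows and 66.8% in hnRNP windows, against 52.7% in all windows. The windows of all genes were not matched to those of the members on GC content. Several genes have more than 1 window, some of them overlapping, and a match is a string of letters, not a binding site.

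The authors' deposited tables give for each gene a mean over the 6 libraries of a comparison, in normalized counts, and a fitted log2 fold change with its standard error (SE). From these the mean of each group was implied. Implied means carry no SD, and whether single libraries of the groups overlapped was not analysed here. The implied sums over all genes were 44.7 M normalized counts (M, mega) for Normal and 42.0 M for SCLC in the first table, and 45.3 M for SCLC and 31.9 M for GSK in the second. Values are log2 fold changes ± SE with the authors' adjusted p-value. A gene is called higher or lower where that p is under 0.05. In SCLC against Normal, 24719 genes were tested and 25.3% were called higher and 25.1% lower. In GSK against SCLC, 28376 were tested, with 21.6% higher and 15.5% lower.

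The labelled tissues were checked on marker genes fixed for 8 cell types. All 7 neuroendocrine markers were higher in SCLC than in Normal, with summed implied levels of 144953 against 93.1 normalized counts, and all 5 alveolar type II markers were lower, at 4543 against 2641470. The Normal libraries also held immune marker RNA, with a summed level of 108923 against 57.3 in SCLC, of which Lyz2, which alveolar type II cells of the mouse also express, gave 108056. All 5 fibroblast markers were lower in SCLC than in Normal as well, with summed levels of 23.7 against 9060. The GSK libraries stood apart from the SCLC libraries in the same lists: 5 of 5 immune, 5 of 5 fibroblast and 4 of 4 endothelial markers were higher. Their summed levels in GSK against SCLC were 115162 against 61.8, 13885 against 25.6 and 16174 against 55.9. Of the immune sum in GSK, Lyz2 gave 94202. Ptprc, the leukocyte antigen CD45, was at least 12562-fold higher, against a floor of 3 counts per group. In SCLC, Ptprc, the immune marker Cd3e, the endothelial marker Cdh5 and the club marker Scgb3a2 lay under that floor. Of the epithelial markers, 4 of 5 alveolar type II, 3 of 4 alveolar type I, 2 of 3 club and 3 of 3 ciliated genes were also higher in GSK, and 1 alveolar type I gene was lower. The neuroendocrine sum was 66398 in GSK against 156474 in SCLC, with 4 of 7 markers lower and 1 higher. In bulk RNA, fewer cells of a type and less RNA per cell cannot be told apart. The sample type of the libraries labelled GSK is therefore in question: the labels and tables do not tell whether organoids alone or tissue with other cells was sampled, and every GSK value below is a value of those libraries. The part that stromal and immune RNA took in the values of the splicing regulators in GSK was not tested.

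In SCLC organoids most splicing regulators stood above their level in normal lung organoids. Of the 13 SR genes, 8 were higher (61.5%), 2 were lower and 3 did not pass. Of the 25 hnRNP genes, 20 were higher (80%), 1 was lower and 4 did not pass. The median log2 fold change was 0.89 for the SR genes and 0.98 for the hnRNP genes, beside 0.10 for all tested genes, in the authors' deposited table. Members are abundant genes, and among the 1820 tested genes with a mean of at least 5000, a bound chosen after the data were seen, 39.9% were higher and 32.5% lower, with a median of 0.20. Of the 8 SR genes past that bound 6 were higher and 2 lower, and of the 20 hnRNP genes past it 19 were higher and 0 lower. When a log2 change above 0.5 in size was tested, 8 hnRNP and 6 SR genes were higher and 0 members lower. In that test 4272 of the 24719 tested genes were higher and 4526 lower. Scaling to the median of genes whose mean was 100 or more lowered every value by 0.18 and ended the calls on Tra2b, Hnrnpul2 and Ptbp2.

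Summed over genes, SR transcripts went from 71897 normalized counts in Normal to 108310 in SCLC, 0.161% and 0.258% of the implied totals of the authors' deposited table. The hnRNP transcripts went from 228721 to 511669, 0.512% and 1.22% of the totals. A change of at least 2-fold among called genes was found for 6 SR and 11 hnRNP genes, always upwards. How many of all tested genes had such a change was not counted, so these numbers have no matching background.

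**Figure D1:**
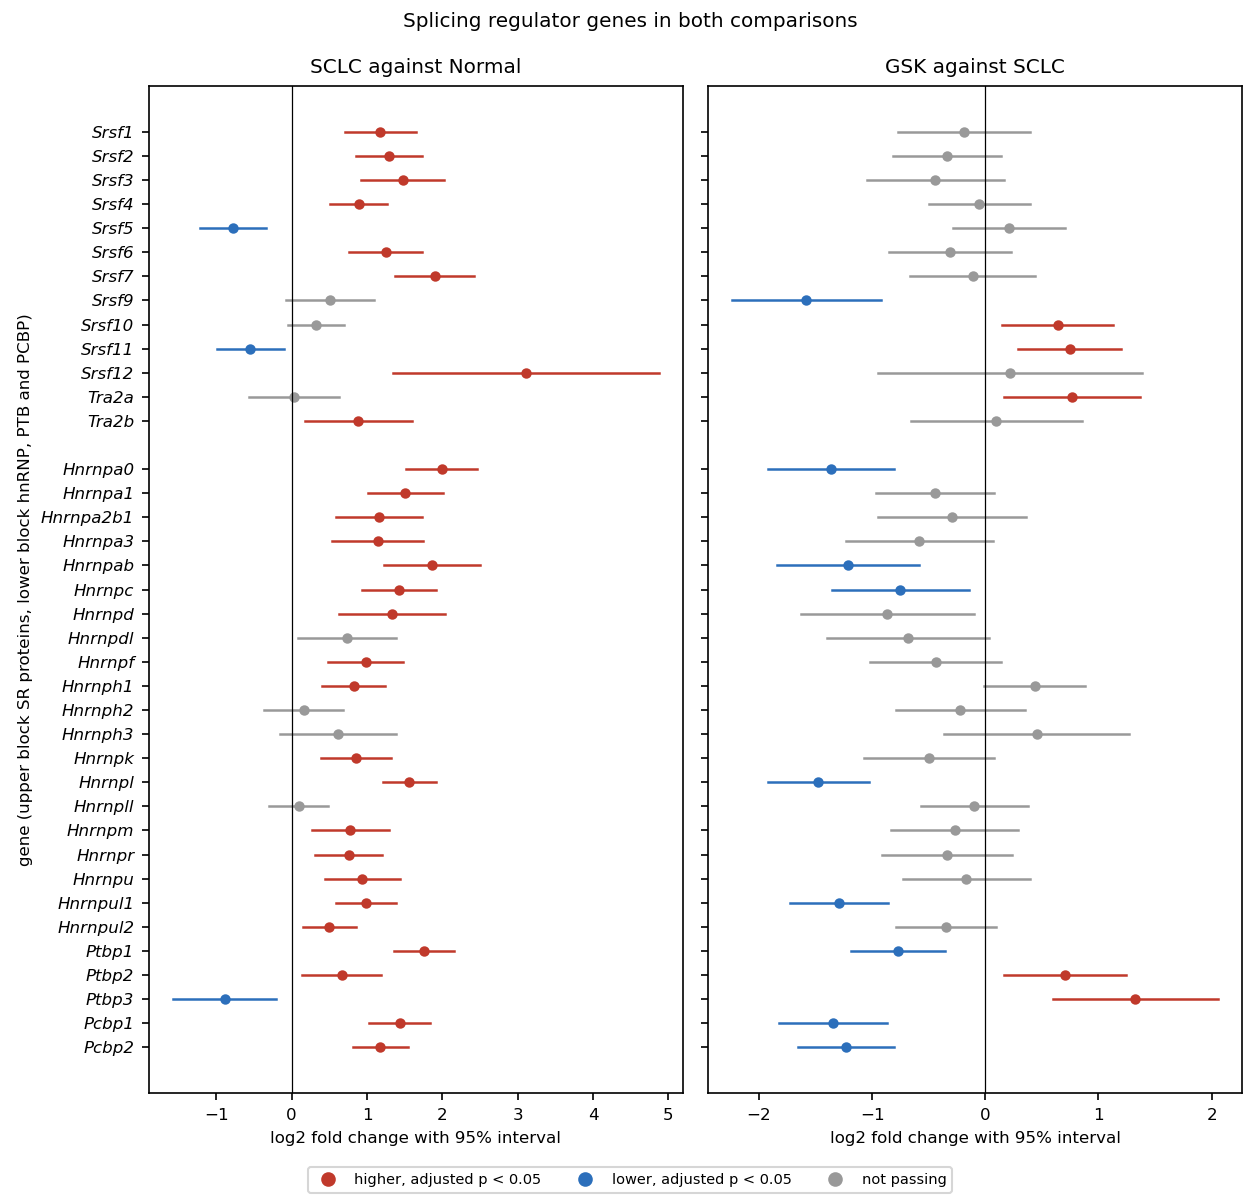
Log2 fold change with its 95% interval for each of the 38 genes, SCLC against Normal on the left and GSK against SCLC on the right, SR genes above and hnRNP, PTB and PCBP genes below. Red and blue mark genes called higher and lower at an adjusted p under 0.05, and grey marks the rest: 28 genes were red on the left, and on the right 9 were blue and 5 red.

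Among the canonical SR proteins, Srsf7, which binds RNA through a zinc knuckle beside its recognition motif and hands mRNA to the export receptor, rose most of those with a mean above 1000. Its implied level was 2548 normalized counts in Normal and 9494 in SCLC, a log2 change of 1.90 ± 0.27 (adjusted p = 1.08e-11 by the authors' deposited table). Srsf3, the smallest SR protein and likewise an export adaptor, stood at 7075 and 19661, a change of 1.47 ± 0.28 (adjusted p = 7.04e-07 by the authors' deposited table). Both levels in SCLC were more than 2-fold those in Normal. Counts on Srsf3 are uncertain, since Srsf3-ps, a pseudogene at 3.89% of its mean, rose with it.

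Srsf1, the founding SR protein and a known proto-oncogene, stood at 6124 in Normal and 13861 in SCLC, a change of 1.18 ± 0.24 (adjusted p = 2.91e-06 by the authors' deposited table). Srsf2, which binds exonic enhancers and is recurrently mutated in myeloid neoplasms, stood at 3118 and 7624, a change of 1.29 ± 0.22 (adjusted p = 3.88e-08 by the authors' deposited table). Srsf6 stood at 6830 and 16236, a change of 1.25 ± 0.25 (adjusted p = 2.09e-06) in the same authors' deposited table. These 3 genes changed by similar amounts, and their 95% intervals, 0.71 to 1.64, 0.85 to 1.73 and 0.76 to 1.74, lay almost on top of each other. Srsf4, a larger relative of Srsf6, rose less, from 859 to 1591, by 0.89 ± 0.19 (adjusted p = 1.74e-05 by the authors' deposited table).

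A pair of SR genes fell while most of their group rose. Srsf5, a relative of Srsf4 and Srsf6 with the same domain order, stood at 21892 in Normal and 12756 in SCLC, a log2 change of -0.78 ± 0.23 (adjusted p = 0.00149 by the authors' deposited table). Per kilobase of merged exons, Srsf5 was the highest of all SR genes in Normal, at 5489, above Srsf9 at 2394 and Srsf6 at 1420. In SCLC it stood at 3198 per kilobase beside 3405 for Srsf9 and 3375 for Srsf6, so the lead was gone. Srsf11, an SR-related protein that takes part in the inclusion of neuronal microexons, stood at 7960 and 5444, a change of -0.55 ± 0.22 (adjusted p = 0.0311 by the authors' deposited table). That call was lost when the table was scaled to equal totals (adjusted p = 0.0769), and both falls were lost with trends in GC content and transcript length removed, with an adjusted p of 0.0775 for Srsf5 and 0.197 for Srsf11.

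Srsf12, the least abundant SR gene, had the largest fold change and the widest interval of all members. It stood at 8.3 normalized counts in Normal and 71.6 in SCLC, a change of 3.11 ± 0.90 (95% interval 1.35 to 4.87, adjusted p = 0.00149 by the authors' deposited table). The SR-like proteins of the transformer-2 type, which bind GAA repeats in exons, parted: Tra2b stood at 3917 and 7239, a change of 0.89 ± 0.36 (adjusted p = 0.0317), and Tra2a at 3621 and 3705, a change of 0.03 ± 0.30 (adjusted p = 0.938 by the authors' deposited table). The interval of Tra2a ran from -0.56 to 0.63, and the difference between both genes was not tested. Srsf9 at 0.51 ± 0.30 and Srsf10 at 0.33 ± 0.19 did not pass either, each with an adjusted p of 0.144 in the authors' deposited table.

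Among hnRNP proteins of the A/B type, which carry a pair of recognition motifs and often block exon inclusion, all 5 members rose. Hnrnpa0, a gene with a single exon, stood at 10589 in Normal and 42140 in SCLC, the largest rise of the hnRNP genes, 1.99 ± 0.24 (adjusted p = 1.31e-15 by the authors' deposited table). Hnrnpab stood at 9243 and 33533, a change of 1.86 ± 0.32 (adjusted p = 4.84e-08), and Hnrnpa1, the best known exon silencer of the class, at 14658 and 41739, a change of 1.51 ± 0.25 (adjusted p = 1.01e-08 by the authors' deposited table). Hnrnpa2b1 at 1.16 ± 0.29 and Hnrnpa3 at 1.14 ± 0.31 rose less in the authors' deposited table, with adjusted p-values of 0.000232 and 0.000617. Reads on Hnrnpa3 are uncertain, because 16 annotated pseudogenes together reached 12.0% of its mean.

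Per kilobase, these 5 genes and Pcbp1 were the most abundant members in SCLC: Hnrnpa0 stood at 15736 normalized counts per kilobase, Pcbp1 at 14983, Hnrnpa1 at 13238, Hnrnpab at 12054, Hnrnpa2b1 at 8361 and Hnrnpa3 at 6911, by levels from the authors' deposited table. In Normal the order was led by Pcbp1 at 5557 and Srsf5 at 5489, and Hnrnpa0 stood at 3954. At the other end, Srsf12 at 22.8 and Ptbp2 at 156 per kilobase were the lowest members in SCLC. The spread of these levels between libraries was not analysed here, so neighbours in the order are not told apart. The order also depends on the length used, which is that of merged exons. For Hnrnpa0 merged exons and the median annotated transcript both have 2678 bases, but for Hnrnpk they have 6466 and 768. An order by transcript length was not made, and the same limit holds for all values per kilobase given here.

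The C-rich binders and other families also stood higher in SCLC. Pcbp1, an intronless KH-domain protein, stood at 10169 and 27419, a change of 1.43 ± 0.21 (adjusted p = 5.69e-11), and Pcbp2, its relative with introns, at 6613 and 14952, a change of 1.18 ± 0.18 (adjusted p = 1.2e-09 by the authors' deposited table). Hnrnpk, the third KH-domain member, which binds runs of C, rose by 0.86 ± 0.24 (adjusted p = 0.000974 by the authors' deposited table). Hnrnpl, which binds CA repeats, stood at 10447 and 30831, a change of 1.56 ± 0.18 (adjusted p = 5.46e-17 by the authors' deposited table), while its paralog Hnrnpll, a regulator of Ptprc splicing in T cells, stood at 4347 and 4637, a change of 0.09 ± 0.20 (adjusted p = 0.722). The interval of Hnrnpll ran from -0.30 to 0.48 and did not meet that of Hnrnpl, 1.21 to 1.91, but the difference itself was not tested.

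Hnrnpc, which binds uridine tracts, rose from 5723 to 15388, by 1.43 ± 0.25 (adjusted p = 8.06e-08 by the authors' deposited table). Hnrnpd, also called AUF1, which binds AU-rich elements and speeds mRNA decay, rose from 3614 to 9100, by 1.33 ± 0.36 (adjusted p = 0.000682 by the authors' deposited table), and its relative Hnrnpdl stood at 7300 and 12138, 0.73 ± 0.33, just short of the threshold (adjusted p = 0.0534). Of the proteins that bind runs of G, Hnrnpf rose by 0.98 ± 0.25 and Hnrnph1 by 0.82 ± 0.21 in the authors' deposited table, with adjusted p-values of 0.00035 and 0.000392, and Hnrnph2 at 0.16 ± 0.27 and Hnrnph3 at 0.62 ± 0.39 did not pass. Counts on Hnrnpf are uncertain, since 4 annotated pseudogenes summed to 34.2% of its mean, nearly all from Gm12435, which rose by 0.93 ± 0.25 in the authors' deposited table.

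The scaffold proteins of the U type rose by smaller amounts: Hnrnpu, which binds chromatin as well as RNA, by 0.94 ± 0.25, Hnrnpul1 by 0.98 ± 0.21 and Hnrnpul2 by 0.50 ± 0.18 in the authors' deposited table, with adjusted p-values of 0.000635, 6.45e-06 and 0.0123. Hnrnpm, known for its part in splicing during epithelial to mesenchymal change, rose by 0.78 ± 0.26 (adjusted p = 0.00691), and Hnrnpr by 0.76 ± 0.23 (adjusted p = 0.00211 by the authors' deposited table). All 5 changes were below 2-fold.

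Of the 3 PTB paralogs, which bind CU-rich tracts, Ptbp1 and Ptbp2 were higher and Ptbp3 was lower, and differences between them were not tested. Ptbp1 stood at 5039 normalized counts in Normal and 16991 in SCLC, a log2 change of 1.75 ± 0.20 (adjusted p = 7.58e-17 by the authors' deposited table). Ptbp2, the neuronal paralog, stood at 902 and 1427, a change of 0.66 ± 0.27 (adjusted p = 0.0298), and Ptbp3, known from blood cells, at 5119 and 2766, a change of -0.89 ± 0.35 (adjusted p = 0.0239 by the authors' deposited table). Per kilobase of exon, Ptbp1 was 1.55 times Ptbp3 in Normal and 9.69 times in SCLC, while Ptbp2 stood at 98.3 and 156, far below Ptbp1 at 1063 and 3585. The call on Ptbp2 was lost with the table scaled to the median of abundant genes (adjusted p = 0.128), and that on Ptbp3 with the GC and length trends removed (adjusted p = 0.0793). Ptbp3 was thus the only hnRNP gene called lower in SCLC. The groups also differed in the cell type markers given above, whose part in it was not tested.

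**Figure D2:**
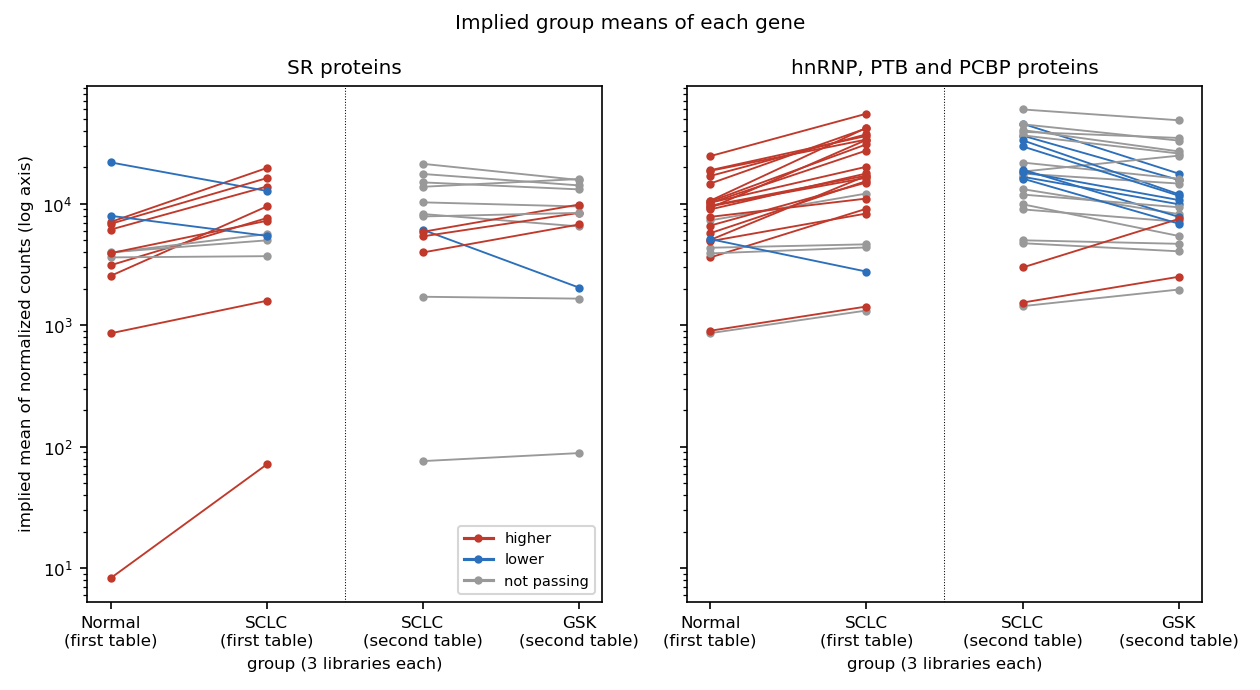
Implied group means in normalized counts on a log axis, 1 line per gene and comparison, SR genes on the left and hnRNP, PTB and PCBP genes on the right, coloured by the call. The first table is SCLC against Normal and the second is GSK against SCLC, scaled separately and drawn from the same SCLC libraries. Heights are not per length, so lines of different genes show changes and not an order of levels. For GSK against SCLC, 8 hnRNP lines and 1 SR line are blue, for lower, and all 8 of these hnRNP genes are red for SCLC against Normal.

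In the libraries labelled GSK more hnRNP than SR genes were lower than in SCLC, although the difference between the classes was not tested. Of the 13 SR genes, 3 were higher (23.1%), 1 was lower (7.69%) and 9 did not pass. Of the 25 hnRNP genes, 2 were higher (8%), 8 were lower (32%) and 15 did not pass. The median log2 fold change was -0.05 for the SR genes and -0.45 for the hnRNP genes, beside 0.24 for all tested genes, in the authors' deposited table. The background depends on abundance here: among the 1631 tested genes with a mean of at least 5000, 5.4% were higher and 52.4% lower, with a median of -0.73. Of the 21 hnRNP genes past that bound, 8 were lower (38.1%) and 1 higher, and of the 10 SR genes past it 0 were lower and 3 higher. The hnRNP share of lower genes was therefore above that of all tested genes and, past that bound, below that of all genes past it, and the SR genes lay below both. The bound does not match genes on abundance: the median mean was 14524 for the hnRNP and 7866 for the SR genes. When a log2 change above 0.5 in size was tested, 5 hnRNP genes and 1 SR gene were lower and 0 members higher. In that test 1742 of the 28376 tested genes were lower, and how many were higher is not given here.

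**Figure D3:**
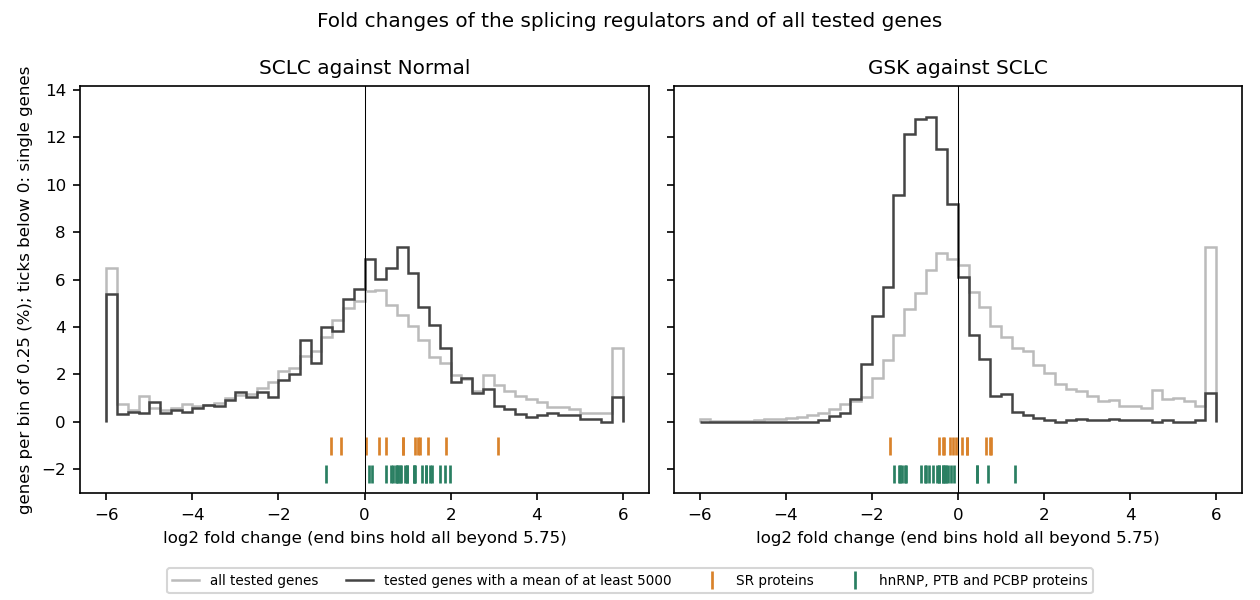
Distribution of log2 fold changes over all tested genes (grey) and over tested genes with a mean of at least 5000 (dark), as percent of genes per bin of 0.25, with ticks below 0 for each SR gene (orange) and each hnRNP, PTB or PCBP gene (green). The dark curve centres at a median of 0.20 on the left and of -0.73 on the right, where most green ticks lie below 0 and the orange ticks gather around 0.

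The scale of this comparison matters for the sign of small changes. The median of genes whose mean was 100 or more lay at -0.25, so scaling to it raises every value by that much, and scaling to equal implied totals raises every value by 0.51. Under the latter the median of the hnRNP genes became 0.06 and that of the SR genes 0.45, beside 0.75 for all tested genes. The summed SR level was 117173 in SCLC and 112176 in GSK, 0.258% and 0.351% of the implied totals, and the hnRNP sum was 553443 and 368119, 1.22% and 1.15% of the totals of the authors' deposited table.

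Of the A/B type, Hnrnpa0 fell from 45572 normalized counts in SCLC to 17699 in GSK, a change of -1.36 ± 0.28 (adjusted p = 1.23e-05 by the authors' deposited table). Hnrnpab fell from 36368 to 15695, a change of -1.21 ± 0.32 (adjusted p = 0.000752 by the authors' deposited table). Both genes thus fell by more than 2-fold, and the call on Hnrnpab was lost with totals made equal (adjusted p = 0.0672). Hnrnpa1 at -0.45 ± 0.27, Hnrnpa2b1 at -0.30 ± 0.33 and Hnrnpa3 at -0.58 ± 0.33 did not pass in the authors' deposited table, with adjusted p-values of 0.187, 0.528 and 0.16. With totals made equal, the first 2 of them had positive values.

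Hnrnpl fell most of the hnRNP genes, from 33285 to 11977, a change of -1.47 ± 0.23 (adjusted p = 1.42e-09 by the authors' deposited table). Hnrnpll stood at 5006 and 4682, a change of -0.10 ± 0.24 (adjusted p = 0.797 by the authors' deposited table). Hnrnpul1, which takes part in the response to DNA damage, fell from 19112 to 7797, a change of -1.29 ± 0.22 (adjusted p = 7.41e-08), and its relatives Hnrnpul2 at -0.35 ± 0.22 and Hnrnpu at -0.17 ± 0.29 did not pass in the authors' deposited table. In both families, then, 1 paralog passed and the others did not, and the differences between paralogs were not tested.

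Both C-rich binders of the PCBP type fell. Pcbp1 stood at 29634 in SCLC and 11656 in GSK, a change of -1.35 ± 0.24 (adjusted p = 3.44e-07), and Pcbp2 at 16121 and 6862, a change of -1.23 ± 0.22 (adjusted p = 1.38e-07 by the authors' deposited table). Hnrnpk, the other KH-domain member, stood at 36534 and 25907, a change of -0.50 ± 0.29 (adjusted p = 0.183 by the authors' deposited table). Hnrnpc fell from 16670 to 9904, a change of -0.75 ± 0.31 (adjusted p = 0.0415 by the authors' deposited table). That was the weakest of the 8 calls: it was lost under both other scalings, with adjusted p-values of 0.199 and 0.567, and with no filter on low values (adjusted p = 0.0523).

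Of the PTB paralogs Ptbp1 was lower and Ptbp2 and Ptbp3 were higher. Ptbp1 fell from 18323 to 10725, a change of -0.77 ± 0.21 (adjusted p = 0.00141), Ptbp2 rose from 1538 to 2508, by 0.71 ± 0.28 (adjusted p = 0.0304), and Ptbp3 rose from 2990 to 7499, by 1.33 ± 0.37 (adjusted p = 0.00165 by the authors' deposited table). Per kilobase, Ptbp1 was 9.67 times Ptbp3 in SCLC and 2.26 times in GSK, and Ptbp2 stood at 168 and 273. Ptbp3 held its call under both other scalings and with the GC and length trends removed, but not when a log2 change above 0.5 was tested (adjusted p = 0.106). Ptbp1 lost its call with totals made equal (-0.27, adjusted p = 0.339) and with the GC and length trends removed (-0.06, adjusted p = 0.856). Ptbp2 lost its call with those trends removed (0.49, adjusted p = 0.156). Ptbp3 is known from blood cells, and all 5 immune markers rose in the same libraries. Their part in its rise was not tested.

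Of the SR genes Srsf9, a short relative of Srsf1, was the only one called lower, from 6110 to 2043, a change of -1.58 ± 0.33 (adjusted p = 1.75e-05 by the authors' deposited table), the largest fall of all 38 members. Srsf1 itself stood at 14988 and 13126, a change of -0.19 ± 0.30 (adjusted p = 0.663 by the authors' deposited table). Srsf11 rose from 5877 to 9856, by 0.75 ± 0.23 (adjusted p = 0.00509 by the authors' deposited table). Srsf10, which represses splicing when it loses its phosphates in mitosis or after heat shock, rose from 5394 to 8413, by 0.64 ± 0.25 (adjusted p = 0.0302), and Tra2a from 3975 to 6754, by 0.76 ± 0.31 (adjusted p = 0.0368 by the authors' deposited table). The calls on Srsf10 and Tra2a were lost with the GC and length trends removed, with values of 0.19 and 0.37.

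The other SR genes did not pass. Srsf3 at -0.44 ± 0.31 and Srsf2 at -0.34 ± 0.24 had the lowest values of these, and Srsf5 at 0.21 ± 0.25 and Srsf12 at 0.22 ± 0.60 the highest, in the authors' deposited table. Srsf6 at -0.31 ± 0.28, Srsf7 at -0.11 ± 0.28, Srsf4 at -0.05 ± 0.23 and Tra2b at 0.10 ± 0.38 lay between them. The 95% interval of Srsf7 ran from -0.67 to 0.44, and that of Srsf3 from -1.05 to 0.17, so a fall of up to 2-fold in Srsf3 lies within its error. With totals made equal, Srsf1, Srsf2, Srsf3, Srsf4, Srsf6 and Srsf7 had positive values and Srsf5 passed at 0.72 (adjusted p = 0.0146), whereas with GC and length trends removed Srsf3 at -0.87 and Srsf7 at -0.74 passed as lower (adjusted p = 0.0168 and 0.0285).

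Of the remaining hnRNP genes, Hnrnpd at -0.87 ± 0.39 (adjusted p = 0.0675) and Hnrnpdl at -0.68 ± 0.37 (adjusted p = 0.136) came nearest to a fall, and Hnrnph1 at 0.44 ± 0.23 (adjusted p = 0.124) to a rise, in the authors' deposited table. Hnrnph1 passed under both other scalings, at 0.68 and 0.94. Hnrnph3 at 0.45 ± 0.42, Hnrnph2 at -0.22 ± 0.29, Hnrnpf at -0.44 ± 0.29, Hnrnpm at -0.27 ± 0.29 and Hnrnpr at -0.34 ± 0.29 did not pass in the authors' deposited table.

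The comparisons share the SCLC libraries, so a high value there pushes a gene up in the first and down in the second, and the values are set side by side only. None of the 8 SR genes that were higher in SCLC passed in GSK. Of the 20 hnRNP genes that were higher in SCLC, 8 were lower in GSK, 11 did not pass, and Ptbp2 was higher in both. The 8 were Hnrnpa0, Hnrnpab, Hnrnpc, Hnrnpl, Hnrnpul1, Ptbp1, Pcbp1 and Pcbp2. Of all tested genes 15.5% were lower in GSK, and of those with a mean of at least 5000, 52.4%. How many of all genes were both higher in SCLC and lower in GSK was not counted, so these numbers have no matching background. Srsf11 and Ptbp3 were lower in SCLC and higher in GSK.

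Members differed in base composition along the same line. The median GC content of annotated transcripts (GENCODE M21, build GRCm38) was 52.1% for the 9 members lower in GSK, from 42.9% to 57.8%, 44.0% for the 5 members higher and 44.3% for the 24 that did not pass. When genes with a mean of 1000 or more were split into 10 bins of GC content, the median log2 change in GSK went from 0.10 in the poorest bin to -0.99 in the richest. In SCLC against Normal it went from -0.13 to 0.63. With trends in GC content and length removed, 12 hnRNP and 3 SR genes were lower in GSK, with medians of -0.72 and -0.22. In SCLC 22 hnRNP and 10 SR genes were then higher, with medians of 1.08 and 1.16. The medians over all tested genes were 0.21 in GSK and 0.11 in SCLC under that setting. Of all genes 6125 were then higher in SCLC, against 6252 before, and how many were lower in GSK is not given here. What the GC trend took in these changes was not tested.

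**Figure D4:**
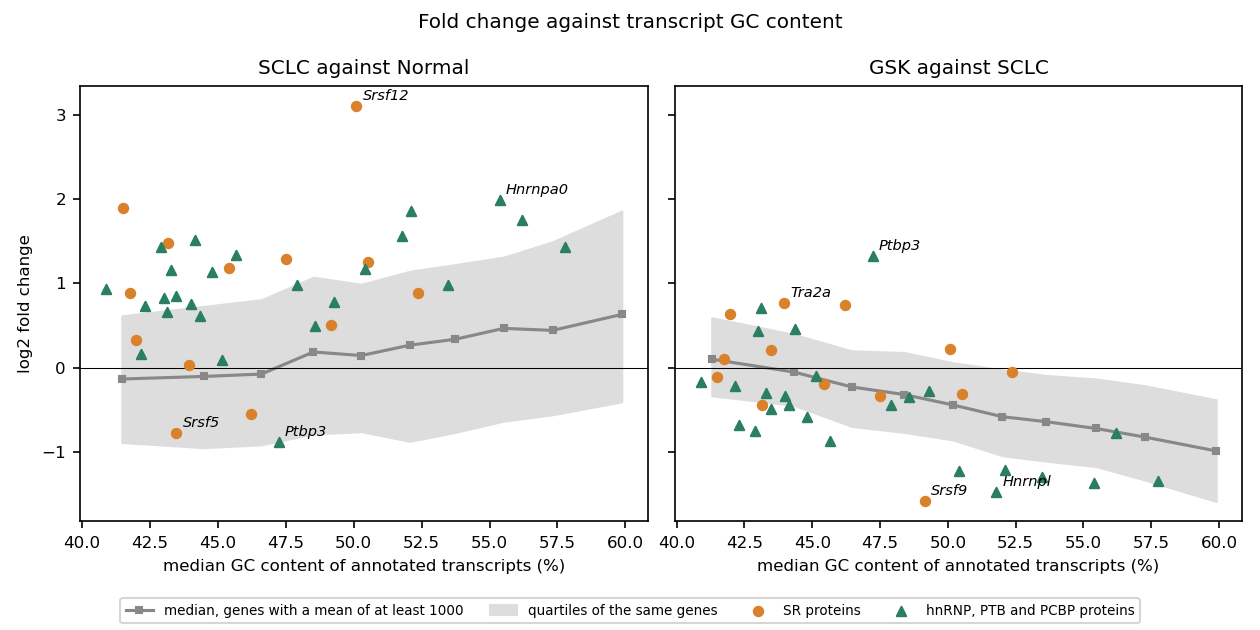
Log2 fold change of each SR gene (orange circles) and each hnRNP, PTB or PCBP gene (green triangles) against the median GC content of its annotated transcripts, with the median and quartiles of all genes whose mean was 1000 or more, in 10 bins of GC content (grey). On the right the grey median falls from 0.10 to -0.99 and members called lower lie mostly above 49% GC, with Hnrnpc as the exception.

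Gene structure was also uneven. Annotated transcripts marked for nonsense-mediated decay exist for 11 of 13 SR genes (84.6%) and 13 of 25 hnRNP genes (52%), against 25.4% of 16272 tested protein-coding genes. The SR genes without one were Srsf10 and Srsf12. Of the 9 members lower in GSK, 3 had such a transcript, Srsf9, Hnrnpl and Ptbp1. Of the 5 members higher in GSK, 4 had one, and of the 24 that did not pass, 17 had one. Hnrnpa0 and Pcbp1 have a single exon and so no intron to splice, and both were higher in SCLC and lower in GSK. Values per gene do not separate poison-exon transcripts from coding ones.

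Genes that act on the members were counted whole from fixed lists, not matched on abundance. Counts here and below stand beside 25.3% of all tested genes higher and 25.1% lower in SCLC, and 21.6% and 15.5% in GSK. Among tested genes with a mean of at least 5000 these shares were 39.9% and 32.5% in SCLC, and 5.4% and 52.4% in GSK. Of 12 SR kinases and phosphatase subunits, 3 were higher and 4 lower in SCLC. Clk1, a kinase of the CLK family whose own transcripts retain introns, changed by -1.97 ± 0.27 (adjusted p = 2.71e-12), and Srpk1, the cytoplasmic SR kinase, rose by 1.70 ± 0.22 (adjusted p = 2.83e-13 by the authors' deposited table). In GSK 4 of the 12 were higher and 1 lower, with Clk1 at 1.69 ± 0.30 (adjusted p = 1.67e-07) and Ppp1ca, a phosphatase subunit, at -1.14 ± 0.24 (adjusted p = 1.6e-05 by the authors' deposited table). The medians of this list were -0.29 and 0.17.

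Of 10 genes for arginine methyltransferases and a cofactor, which modify the glycine and arginine repeats of hnRNP proteins, 7 were higher and 2 lower in SCLC, with a median of 1.61, and 1 was higher and 6 lower in GSK, with a median of -0.84. Prmt1, the main enzyme for asymmetric dimethylation, stood at 3075 normalized counts in Normal and 24132 in SCLC, a rise of 2.97 ± 0.27 (adjusted p = 1.98e-26), and at 26144 in SCLC and 5312 in GSK, a change of -2.30 ± 0.32 (adjusted p = 1.3e-11), both by the authors' deposited tables. Prmt3 rose by 2.75 ± 0.31 in SCLC, and Prmt7 changed by -1.85 ± 0.23 in GSK, in the authors' deposited tables. Prmt8, a membrane-bound relative of Prmt1, went the other way at very low levels. It changed by -6.86 ± 1.27 in SCLC (adjusted p = 3.35e-07) and by 4.53 ± 1.82 in GSK (adjusted p = 0.0362 by the authors' deposited tables). Its implied level was 33.0 normalized counts in Normal and 6.82 in GSK, and in SCLC it lay under the floor. Against that floor its level was at least 33.0-fold higher in Normal and at least 6.82-fold higher in GSK, and the fitted sizes are uncertain.

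Of 18 other RNA-binding proteins of the hnRNP kind outside the member list, 15 were higher and 0 lower in SCLC, with a median of 1.46, and 0 were higher and 10 lower in GSK, with a median of -0.65. Among tested genes with a mean of at least 5000, 52.4% were lower in GSK, with a median of -0.73. The paralogs Pcbp3 and Pcbp4 rose by 4.03 ± 0.26 and 3.87 ± 0.28 in SCLC in the authors' deposited table, more than Pcbp1 and Pcbp2. In GSK Pcbp4 changed by -1.79 ± 0.32 (adjusted p = 1.95e-07) and Rbm3, a cold-inducible protein, changed by -1.54 ± 0.27 (adjusted p = 1.94e-07 by the authors' deposited table). Ralyl, a brain-enriched relative of Hnrnpc, changed by 4.70 ± 1.65 in SCLC (adjusted p = 0.0102) and by -4.93 ± 1.61 in GSK (adjusted p = 0.00813 by the authors' deposited tables). Its levels were very low, at 10.3 and 11.3 implied normalized counts in SCLC in the first and second comparison. In Normal and GSK it lay under the floor. Against that floor its level in SCLC was at least 10.3-fold that in Normal and at least 11.3-fold that in GSK, and the fitted sizes are uncertain.

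Of 20 SR-related proteins, 5 were higher and 3 lower in SCLC and 4 higher and 3 lower in GSK, with medians of 0.12 and 0.25. Those with the largest changes in SCLC were Rnps1 of the exon junction complex at 2.05 ± 0.22 and the subunits of the U2 auxiliary factor, which reads the polypyrimidine tract and the 3′ splice site, U2af2 at 1.93 ± 0.30 and U2af1 at 1.83 ± 0.27, in the authors' deposited table. In GSK U2af2 stood at -1.57 ± 0.32 and Rnps1 at -1.06 ± 0.27, and Pnisr at 1.59 ± 0.26, in the authors' deposited table.

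Of 7 nuclear import and export carriers, 4 were higher and 0 lower in SCLC, among them Kpnb1 at 1.44 ± 0.19, Kpna2 at 1.42 ± 0.23 and Xpo1 at 1.42 ± 0.26 in the authors' deposited table. In GSK 0 were higher and 3 lower: Kpna2 at -1.61 ± 0.27, the transportin Tnpo2 at -1.51 ± 0.31 and Kpnb1 at -0.67 ± 0.23 in the authors' deposited table. Of 10 nonsense-mediated decay factors, 4 were higher and 1 lower in SCLC, and 1 higher and 3 lower in GSK. Upf1, the helicase of that pathway, stood at -1.31 ± 0.23 in GSK (adjusted p = 2.13e-07) and the kinase Smg1 at 0.80 ± 0.25 (adjusted p = 0.0056), in the authors' deposited table, and Upf2 changed by -1.16 ± 0.27 in SCLC. All 10 cell division genes were higher in SCLC, with a median of 3.37, and in GSK 6 were lower and 1 higher, with a median of -1.22. How far the splicing regulators move with the share of dividing cells was not tested.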

How the data were processed

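A stranded mRNA kit was used for the libraries, with paired reads of 150 bp, per the labels' protocols, and STAR 2.7.9a and build GRCm39 are named per the submitters' processing notes. Not given in the sources used here are the counting tool, the annotation release and the test, although the columns carry names that DESeq2 uses, per the file headers. The deposited signal is the authors' mean of normalized counts over 6 libraries. The log2 fold changes and standard errors are those the authors deposited. The authors' score equalled the fold change over its standard error. The authors' adjusted p-value under 0.05 was the test, fitted by them across all genes.

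Group means were implied from the mean over 6 libraries and the fold change, with 3 libraries per group. The control of the second table was taken as the SCLC group, because its implied means matched those of SCLC in the first table over 13634 genes (SD of the log2 ratio 0.00837, against 2.02 for the other arm). A floor of 3 counts per group, a mean of 1, gave the lower bounds of the folds of Ptprc, Prmt8 and Ralyl, which cover counting error only. Transcript length, GC content and transcript types came from GENCODE M21 (build GRCm38), matched by gene identifier, and promoters from RefSeq, matched by symbol. Alternatives recomputed p from the authors' standard errors in Python 3.11.15 with numpy 2.4.6, pandas 2.3.3 and scipy 1.17.1, and the code was tested on simulated data. All 38 members are named. Related lists name up to 3 passing genes of the largest change per comparison. Members and lists were chosen with earlier results of these data known.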

Additional observations from a re-analysis of the deposited data

How the results depend on the processing

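No paired analysis was possible because the files used hold comparisons and no values of single libraries, and for the same reason the alternatives that leave out each replicate or add a replicate block were not run. At an adjusted p under 0.01, lower in SCLC were 1 SR and 0 hnRNP genes, and higher in GSK were 1 SR and 1 hnRNP gene. With an absolute log2 change above 0.5 tested, SCLC had 0 SR and 0 hnRNP genes lower and 8 hnRNP genes higher, and GSK had 0 SR and 0 hnRNP genes higher, 5 hnRNP genes lower and 1742 of all genes lower. With implied totals made equal, 1 SR gene was lower in SCLC, and in GSK 5 hnRNP genes and 1970 of all genes were lower (8738 higher). In GSK, 3422 of all genes were higher among those with a mean of at least 50, a filter under which Srsf12 was not tested in SCLC. With GC and length trends removed, 0 SR and 0 hnRNP genes and 5957 of all genes were lower in SCLC. In GSK 1 SR and 1 hnRNP gene were then higher and 3 SR genes lower. Scaling to the median of abundant genes left 7242 of all genes higher and 3077 lower in GSK, against 6129 and 4404 in the authors' deposited table, and 5554 and 6952 in SCLC, against 6252 and 6201. Changes of sign befell no called member. In SCLC, scaling to that median gave Tra2a -0.15, Hnrnph2 -0.0183 and Hnrnpll -0.0883. In GSK it gave Srsf1 0.0544, Srsf4 0.19, Srsf7 0.13, Hnrnph2 0.0249, Hnrnpll 0.15 and Hnrnpu 0.0783. Equal totals in GSK gave Srsf1 0.31, Srsf2 0.17, Srsf3 0.0646, Srsf4 0.45, Srsf6 0.19, Srsf7 0.39, Hnrnpa1 0.0601, Hnrnpa2b1 0.21, Hnrnpf 0.0661, Hnrnph2 0.29, Hnrnpk 0.0102, Hnrnpll 0.41, Hnrnpm 0.23, Hnrnpr 0.17, Hnrnpu 0.34 and Hnrnpul2 0.16. With GC and length trends removed, GSK gave Srsf4 0.0854, Srsf5 -0.22 and Tra2b -0.31. The cause of these differences was not tested. Depth per library was not analysed here, and Srsf12, at 8.3 to 88.9 implied normalized counts per group, has the widest error.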
